A study of Arabidopsis thaliana with 12 samples.

Results

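AT3G58610 encodes ketol-acid reductoisomerase and AT3G23940 encodes dihydroxyacid dehydratase, consecutive enzymes of branched-chain amino acid synthesis in Arabidopsis thaliana. Each of these 2 genes had a feature of its own on the array. In all, 691 genes had a single-gene feature, and 3438 genes or features were tested. The 2 genes were chosen with earlier results of these data known. Total RNA was measured in 12 samples of ecotype Columbia 0, 6 from wild type (WT) and 6 from the pam46 mutant, whose photosynthesis is altered. The labels call the protein affected in pam46 unknown, so the mutation could not be checked on the array. The sources used here do not name the tissue, the age or the growth conditions. None of the 7 leaf, 4 root and 6 seed marker genes listed had a single-gene feature, so the tissue could not be checked either.

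Valine, leucine and isoleucine are made in the plastid. Acetohydroxyacid synthase first condenses pyruvate with a second oxo acid, ketol-acid reductoisomerase then rearranges and reduces the product with NADPH and magnesium, and dihydroxyacid dehydratase removes water to give the oxo acids that aminotransferases convert into the amino acids. The valine and isoleucine branches run through the same enzymes at these steps, and the leucine branch starts from the oxo acid that precedes valine. Dihydroxyacid dehydratase carries an iron-sulfur cluster.

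Values are spot intensities in the arbitrary unit of the deposited table. Summed intensity ran from 3290 to 3644 in WT and from 3297 to 3561 in pam46, while median intensity was 0.296 to 0.341 in WT and 0.199 to 0.226 in pam46. Because the medians differed, tests used quantile-normalized values on the log2 scale, and a change is pam46 minus WT on that scale unless the deposited scale is named. A call needed an adjusted p under 0.05 (limma, Benjamini-Hochberg over all genes or features). Samples with consecutive numbers (1 and 2, 3 and 4, 5 and 6) deviated together within each group, so errors from 6 samples a group can be too small. For both genes, the other list genes and the adjoining features, the adjusted p with such pairs averaged, 3 against 3, is therefore given as well. Fits with samples left out, on other scales or relative to neighbours use samples without averaging unless averaging is named. No label says that samples came from separate plants, so the spread behind every p-value may be technical. In RNA of a whole tissue, fewer cells of a type and less RNA per cell cannot be told apart.

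The dehydratase gene was higher in pam46, while the reductoisomerase gene that precedes it in the pathway did not pass the test. AT3G23940 rose 3.32-fold (95% interval 2.40 to 4.59, n = 6 per group, and 2.0 to 5.5 with consecutive numbers averaged). Its call held with averaging (adjusted p = 0.0216) and ended with averaging and the replicate block together (0.0563). On the values as deposited the rise of AT3G23940 was smaller, at 2.42-fold. AT3G58610 stood at a log2 change of -0.23 ± 0.21 (SE), with a 95% interval for the fold from 0.619 to 1.17, and an adjusted p of 0.417. From deposited intensities, the ratio of the dehydratase feature to the reductoisomerase feature was 4.10-fold higher in pam46. The groups did not overlap, as for 13.8% of 2901 features set against AT3G58610, in either direction. With consecutive numbers averaged, the exact permutation p of the ratio was 0.1, the smallest that 3 against 3 allows.

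The deposited intensity of AT3G58610 in WT samples 1 to 6 was 0.357, 0.402, 0.274, 0.292, 0.417 and 0.539. In pam46 samples 1 to 6 it was 0.147, 0.304, 0.220, 0.209, 0.313 and 0.168. WT samples 3 and 4 were the lowest of their group and sample 6 the highest, and 4 of 6 pam46 samples lay below every WT sample. The mean was 0.380 ± 0.0965 for WT and 0.227 ± 0.0684 for pam46 (SD, n = 6). The pam46 sample was the lower one at each of the 6 numbers, by 1.25-fold (number 3) to 3.20-fold (number 6). On the deposited scale this was common, since 38.4% of all genes or features were lower in pam46 at all 6 numbers.

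After quantile normalization the order at single numbers no longer held for the reductoisomerase gene. Its log2 intensity was -1.67 ± 0.34 in WT and -1.90 ± 0.41 in pam46 (SD, n = 6). The pam46 sample was lower at numbers 1 and 6, by 0.68 and 1.22, and between 0.03 and 0.27 higher at the other 4. The groups overlapped, with only pam46 samples 1 and 6 below every WT sample. The adjusted p was 0.459 with consecutive numbers averaged (95% interval of the log2 change -0.73 to 0.26).

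The call for AT3G58610 depended on the scale. On the values as deposited its log2 change was -0.76 (adjusted p = 0.0154), on a scale where 37.8% of all genes or features were called lower. With the samples set to equal sums it was -0.74 (adjusted p = 0.0156). The median log2 change of all genes or features was -0.36 on the deposited scale and -0.34 with equal sums, and relative to it AT3G58610 stood at -0.41 on both. With consecutive numbers averaged, the deposited scale gave an adjusted p of 0.0533 and no call. Over the 29 alternatives run, which share most samples, the log2 change ran from -0.76 to -0.07, the latter without numbers 5 and 6. On quantile-normalized values, averaging, blocks, the prior, the filter on dim features and the floor left the estimate at -0.23. Its sign could not turn there, so the alternatives do not count as separate evidence of a lower level.

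The deposited intensity of AT3G23940 in WT samples 1 to 6 was 0.184, 0.158, 0.130, 0.147, 0.286 and 0.231. In pam46 samples 1 to 6 it was 0.407, 0.494, 0.483, 0.679, 0.286 and 0.389. The lowest pam46 sample was just above the highest WT sample, though at number 5 the values of WT and pam46 were equal to 3 digits. On the deposited scale, 5.38% of all genes or features were separated in this way with pam46 above WT. The mean was 0.189 ± 0.0590 for WT and 0.456 ± 0.133 for pam46 (SD, n = 6).

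After quantile normalization AT3G23940 was at -2.73 ± 0.37 in WT and -1.0 ± 0.39 in pam46 (log2, SD, n = 6), and the groups remained apart, as did those of 10.7% of all genes or features with pam46 above WT. The log2 change was 1.73 ± 0.21 (SE, adjusted p = 8.52e-05). Calls were frequent in this comparison: 41.1% of all genes or features were called, 19.5% as higher in pam46. With consecutive numbers averaged the 95% interval of the fold widened to 2.0 to 5.5 and the adjusted p was 0.0216, in a fit that called 17.1% of all. Pairing of WT with pam46 samples rests only on shared sample numbers and on correlations that do not single out equal numbers. With consecutive numbers averaged and the shared numbers added as a replicate block, the call ended at an adjusted p of 0.0563. That fit called 20.2% of all.

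AT3G23940 was in the upper part of the distribution of changes, as the histogram of all changes shows. Of all genes or features, 96.7% had a lower log2 change, and 30 of the other single-gene features rose more. AT3G58610 lay nearer the middle, with 37.1% of all below it. No sample of either gene was at the floor of 0.0278 set for low values. The lowest normalized value was 3.79 times the floor for AT3G23940 and 6.60 times for AT3G58610, so moving the floor left both log2 changes as they were.

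**Figure D1:**
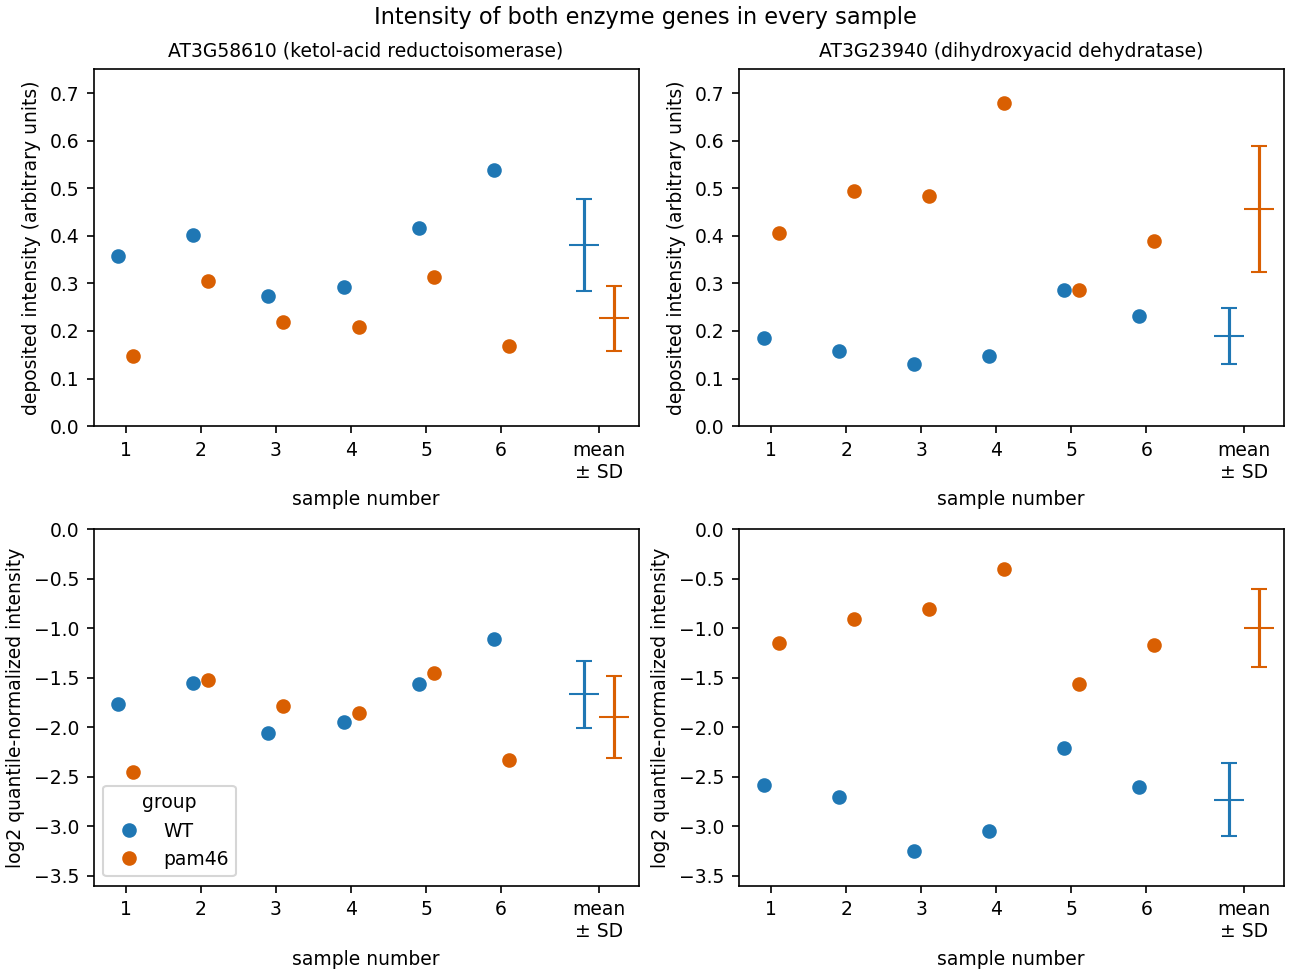
Intensity of AT3G58610 (left) and AT3G23940 (right) against sample number for WT (blue) and pam46 (orange), as deposited in the upper row and as log2 quantile-normalized intensity in the lower row, with the mean ± SD of each group at the right of each panel (n = 6). For AT3G23940 the pam46 points are above all WT points on both scales, and the deposited values nearly coincide at number 5 (0.286 in both groups). For AT3G58610 the pam46 points are the lower ones at each number on the deposited scale and mix with the WT points after normalization.

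The rise of AT3G23940 was of unequal size across the sample numbers. On the normalized scale it was 5.83-fold over numbers 3 and 4, 3.05-fold over numbers 1 and 2, and 2.06-fold over numbers 5 and 6. On the deposited scale it was 4.15-fold, 2.62-fold and 1.30-fold over the same pairs. The WT samples 3 and 4 were the lowest of their group, and on the normalized scale pam46 samples 3 and 4 were the highest of theirs. Without numbers 3 and 4 the log2 change was 1.32 (adjusted p = 0.00135), and without numbers 5 and 6 it was 2.08 (adjusted p = 0.000628). With any 1 sample left out it was 1.61 to 1.84, with adjusted p-values of 0.000100 to 0.000334.

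Whether the changes of both genes differed was tested on their ratio within each sample, where any factor that scales a whole sample cancels. Because both genes were chosen with earlier results known, this was not a comparison set in advance, and its p-values are descriptive. The level of a ratio between features has no meaning of its own, since each feature binds with its own efficiency, and only its difference between groups was used. In WT samples 1 to 6 the ratio of AT3G23940 to AT3G58610, from deposited intensities, was 0.516, 0.394, 0.474, 0.502, 0.685 and 0.429. In pam46 samples 1 to 6 it was 2.76, 1.62, 2.20, 3.25, 0.915 and 2.31. The groups did not overlap, and pam46 sample 5 was the nearest to WT.

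The mean log2 ratio was -1.02 ± 0.28 in WT and 1.01 ± 0.65 in pam46 (SD, n = 6), a difference of 2.04. After quantile normalization the difference was 1.96. An exact two-sided permutation test over the 12 samples gave p = 0.00216, the smallest it can give. Between samples of the same number the ratio was 1.33-fold (number 5) to 6.48-fold (number 6) higher in pam46. An exact two-sided sign-flip test over the 6 numbers gave p = 0.0312, also the smallest possible. That test takes the 6 numbers as separate, though consecutive numbers deviated together, so its p can be too small. With consecutive numbers averaged, the difference was the same and the exact permutation p was 0.1, the smallest that 3 against 3 allows. Set against AT3G58610 in the same way, 13.8% of the 2901 features above 0 in every sample had ratios that did not overlap between the groups, in either direction.

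Other steps of the pathway could be followed only through these genes. Of 21 genes of branched-chain amino acid synthesis listed, which include acetohydroxyacid synthase, threonine deaminase, the leucine branch and the aminotransferases, 2 had a single-gene feature, and these are the genes described here. Of the listed genes of branched-chain amino acid breakdown (8), aromatic amino acid synthesis (22), plastid pyruvate supply (10), plastid iron-sulfur cluster assembly (12) and plastid NADPH supply (6), none had one. Of 5 further measured genes from the lists of amino acid synthesis and of plastid iron-sulfur enzymes, 1 was called higher, none lower, and 4 did not pass, beside 19.5% of all genes or features called higher and 41.1% called in either direction. With consecutive numbers averaged limma called 0 of the 5 (1 at an unadjusted p under 0.05). Their median log2 change was 0.24, beside 0.00 for all genes or features.

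The called gene was AT4G26900, annotated AT-HF, which encodes the glutamine amidotransferase and cyclase of histidine synthesis. Its deposited intensity ran from 0.432 to 0.634 in WT (median 0.582) and from 0.487 to 1.12 in pam46 (median 1.01). On the deposited scale 4 of 6 pam46 samples lay above every WT sample, and pam46 samples 3 and 4 lay within the WT range. On the normalized scale all 6 pam46 samples were above WT, the lowest at -0.79 against a highest WT value of -0.84 (log2). Such a separation, with pam46 above WT, held for 10.7% of all genes or features. AT4G26900 rose by 0.87 ± 0.19 (log2, SE, adjusted p = 0.00354), but was not called with consecutive numbers averaged (adjusted p = 0.0819) or without numbers 1 and 2 (0.0681).

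The other 4 genes had values on both sides of 0. AT2G04700, the catalytic subunit of ferredoxin-thioredoxin reductase and an iron-sulfur protein like the dehydratase, was at 0.24 ± 0.19 (log2, SE, adjusted p = 0.347, and 0.608 with averaging), and passed as higher with equal medians (0.73, adjusted p = 0.00769). AT5G10920, the argininosuccinate lyase of arginine synthesis, was at -0.33 ± 0.36 (adjusted p = 0.511, and 0.682 with averaging), and passed as lower without WT sample 3 (-0.65, adjusted p = 0.0466). CBL (AT3G57050), the cystathionine beta-lyase of methionine synthesis, was at 0.24 ± 0.60 (adjusted p = 0.792, and 0.871 with averaging), with a sign that turned in several alternatives, and passed as higher relative to its 20 nearest features (1.67, adjusted p = 0.0178). AT3G53580, the diaminopimelate epimerase of lysine synthesis, was at -0.05 ± 0.47 (adjusted p = 0.957, and 0.951 with averaging), and its sign also turned. Intervals of the last pair were wide, with fold changes of 0.474 to 2.93 and 0.471 to 1.98. In both genes 1 WT sample was at the floor, and in CBL 1 pam46 sample as well.

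**Figure D2:**
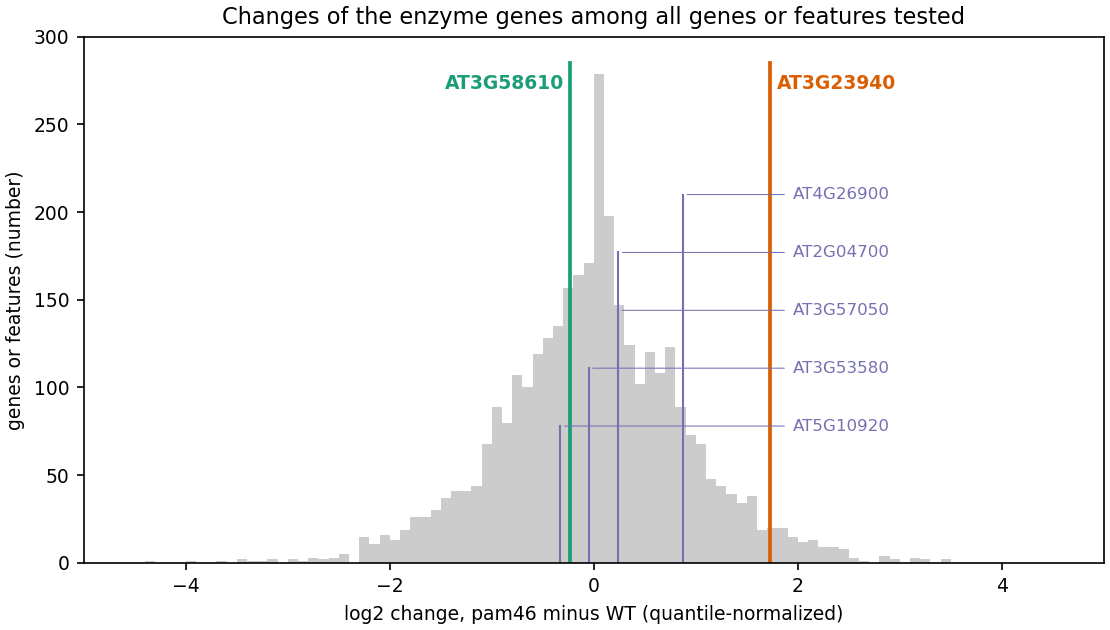
Number of genes or features against log2 change, pam46 minus WT, for all 3438 tested (grey histogram), with AT3G58610 (green), AT3G23940 (orange) and the 5 other measured enzyme genes (purple) marked. AT3G23940, at 1.73, lies in the right tail, while AT3G58610, at -0.23, and 4 of the 5 others lie near the middle.

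The features nearest in feature number were examined beside each gene. The sources used here do not describe the array's layout, so nearness in number need not be nearness on the array. Of the 20 features nearest to AT3G23940, 9 were called higher in pam46 and 2 lower. Of all 3438 genes or features, 669 (19.5%) were called higher and 744 lower. The median log2 intensity of these 20 neighbours averaged -2.56 in WT and -2.11 in pam46. The feature directly before it, number 2423, has no gene named and was 1.46 ± 0.30 higher in pam46 (log2, SE, adjusted p = 0.00228), but not called with averaging (0.0648). The one after it, AT1G73120, was at 0.26 ± 0.40 (adjusted p = 0.650, and 0.769 with averaging). Relative to the median of its 20 nearest features in each sample, AT3G23940 rose by 1.28 ± 0.19 (adjusted p = 0.000198).

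Of the 20 features nearest to AT3G58610, 2 were called higher and 4 lower, beside 669 and 744 of all 3438 genes or features. The median of these 20 neighbours was at -2.60 and -2.69 in WT samples 3 and 4, against -1.25 to -0.90 in the other WT samples. In AT3G58610 itself these samples were also the lowest of WT, at -2.06 and -1.94. The feature listed before AT3G58610, number 2891, was 0.67 ± 0.22 higher in pam46 (log2, SE, adjusted p = 0.0287, and 0.216 with averaging). The one after it, number 2895, was at -0.86 ± 0.47 (adjusted p = 0.169, and 0.389 with averaging). The brightest of the 20, number 2881, had a mean deposited intensity of 25.7, against 0.304 for AT3G58610. Across the 12 deviations from group means, Pearson's r between each gene and the median of its neighbours was 0.38 for AT3G58610 and 0.54 for AT3G23940, as a description. Relative to its neighbours AT3G58610 was at -0.19 ± 0.32 (adjusted p = 0.656). On the same relative scale the difference of the log2 ratio was 1.47 (exact two-sided permutation p = 0.0108).

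**Figure D3:**
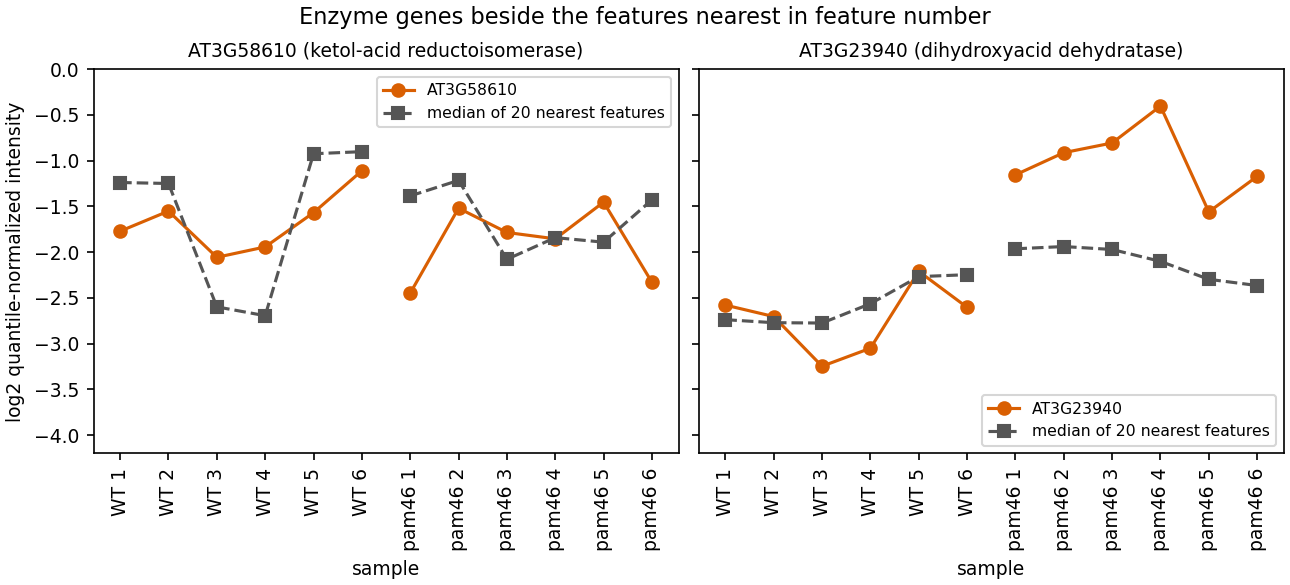
Log2 quantile-normalized intensity of AT3G58610 (left) and AT3G23940 (right) in each sample (orange circles), with the median of the 20 features nearest in feature number (grey squares). The neighbours of AT3G58610 dip in WT samples 3 and 4 (-2.60 and -2.69), and AT3G23940 lies above its neighbours in all 6 pam46 samples and in 3 of 6 WT samples.

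Among the 510 other single-gene features with no sample at the floor, likeness to each gene was ranked by Pearson's r over the 12 samples. These values are descriptions, and over the 12 samples r with AT3G23940 is governed by the difference between WT and pam46. Nearest to AT3G23940 were AT5G42680 (r = 0.93), AT4G01310 (0.93), which encodes plastid ribosomal protein L5, AT2G30100 (0.93), the sucrose phosphate synthase gene ATSPS4F (AT4G10120, 0.93) and AT5G46560 (0.92). All 5 had log2 changes above 0, from 0.89 to 2.91. By deviations from group means, which leave out that difference, the nearest were AT3G50180 (0.79), AT2G04700 (0.78), DRT101 (AT5G18070, 0.77), AT2G26340 (0.71) and AT2G38950 (0.71). The feature of AT3G50180, number 2420, is close to that of AT3G23940, number 2424.

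For AT3G58610 the highest values were lower. They belonged to the photosystem II subunit gene PSBY (AT1G67740, r = 0.65), AT4G24750 (0.65), AT2G25870 (0.62), AT4G31470 (0.58) and AT4G20760 (0.56). By deviations from group means they belonged to AT2G25870 (0.64), AT4G24750 (0.64), AT2G04790 (0.63), PSBY (0.61) and AT1G30700 (0.61). The r between the reductoisomerase and dehydratase genes was -0.20 over the 12 samples and 0.27 for deviations. By deviations, AT3G23940 was at rank 79 of 510 for likeness to AT3G58610.

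**Figure D4:**
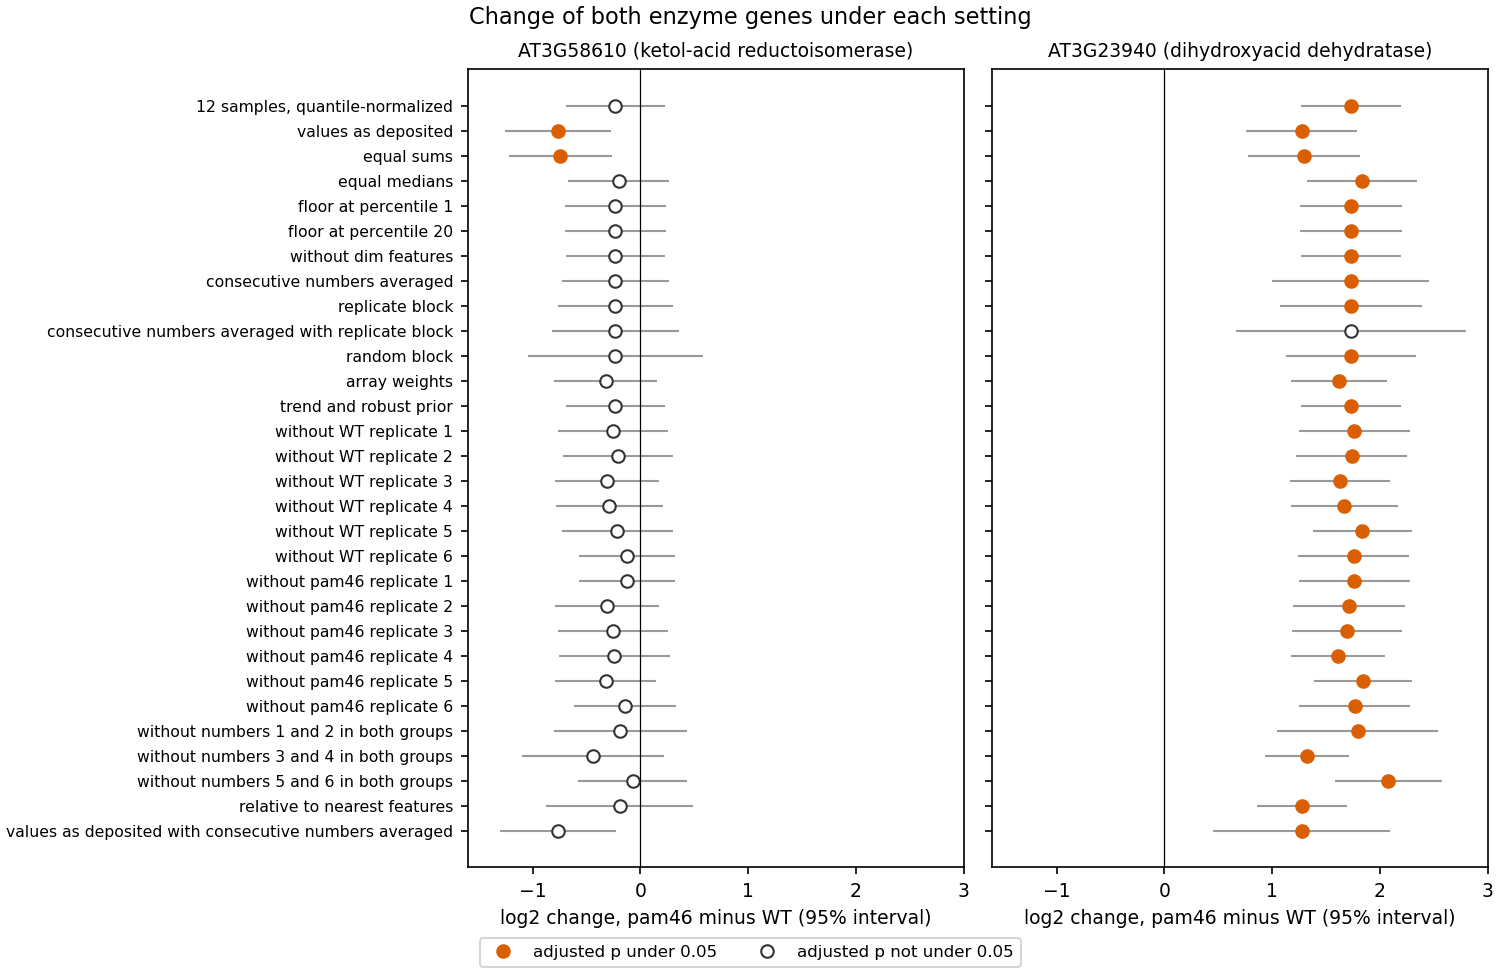
Log2 change, pam46 minus WT, of AT3G58610 (left) and AT3G23940 (right) with its 95% interval, for the 12 samples after quantile normalization and each alternative, filled where the adjusted p was under 0.05. AT3G23940 is called everywhere except with averaging and the replicate block together (adjusted p = 0.0563), and AT3G58610 only on the deposited scale and with equal sums.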

How the data were processed

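The deposited table holds 1 intensity on a linear scale for each of 3439 features in 12 samples. The sources used here do not state how the authors corrected or normalized these deposited intensities, and the labels say nothing of it. Gene names came from the platform annotation at GEO, parts of which may be outdated: 692 features name 1 gene, 870 several and 1877 none. Only features with 1 gene were named, and 690 of them matched RefSeq assembly TAIR10.1, used for names only. For a gene with more than 1 feature the brighter was kept.

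Values were quantile-normalized, values under the 5th percentile of positive values (0.0278) were set to it, and log2 was taken. limma 3.58.1 in R 4.3.3 (lmFit, eBayes, two-sided) was fitted to all 3438 genes or features. This step was tested on simulated data with noise independent between samples. Such noise lacks the shared deviations of consecutive numbers, so that test does not show how the calls hold under them. Exact tests were run in Python 3.11.15 with NumPy 2.4.6. The genes, lists and settings were chosen with earlier results of these data known. Named are the 2 genes, every measured list gene, the features most alike and the neighbours in feature number. Arrays give no read depth, and their number limits precision.

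Sample numbers occur in both groups. Deviations from group means correlated at 0.24 to 0.57 between WT and pam46 samples of the same number, all above the 0.1 set for pairing. Between WT and pam46 samples of consecutive but unequal numbers they correlated at 0.13 to 0.42, also above it. Consecutive numbers within a group correlated at 0.26 to 0.67, and other samples of a group at -0.58 to -0.19. The pairing thus rests on numbers that the labels share between groups, and on these correlations, which do not single out equal numbers. Alternatives covered scaling, floor, a filter on dim features, averaging, blocks, array weights, the prior and samples left out.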

Additional observations from a re-analysis of the deposited data

Results flagged for a closer look

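For AT3G53580, the diaminopimelate epimerase gene, pam46 sample 4 had a log2 normalized intensity of -5.03, and the 5 other samples of pam46 had -3.63 to -2.81. Its gap to the nearest sample was 0.630 of the group's range, above Dixon's 95% critical value for 6 samples. It was the only sample so marked among 16 groups of 6 examined, where chance marks about 1 in 20. Without it the log2 change of AT3G53580 was 0.23, against -0.05 with all samples, and it was not called either way. WT sample 2 of this gene, with a normalized intensity of 0.0029, had been set to the floor, at -5.17 (log2). Without WT sample 2 the log2 change was -0.37, also not called.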

How the results depend on the processing

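The rise of AT3G23940 passed in 28 of 29 alternatives, with log2 changes from 1.27 to 2.08. It ended with consecutive numbers averaged and the replicate block together (1.73, adjusted p = 0.0563). The replicate block alone gave 1.73 for AT3G23940 (adjusted p = 0.00315), -0.23 for AT3G58610 (0.431), 2.04 for the log2 ratio of both (exact sign-flip p = 0.0312) and 1658 calls over all genes or features. It changed no call of these genes. AT3G58610 passed in 2 of 29, as deposited (-0.76) and after scaling to equal sums (-0.74), and with 1 sample left out was at -0.32 to -0.12. The log2 ratio was 2.04 with averaging, where p cannot fall below 0.1, and 1.90 to 2.26 with 1 sample left out. The count of 1413 called genes or features moved to 587 with averaging, 693 with averaging and the block, 922 with a random block for consecutive numbers and 905 on averaged deposited values. The split was 669 higher and 744 lower, against 899 and 642 with equal medians, 382 and 1274 with equal sums, and 373 and 1301 as deposited. Of the 5 other list genes, limma called 0 with averaging, 0 with averaging and the block, 0 without numbers 1 and 2 and 0 on averaged deposited values (1, 1, 1 and 0 at an unadjusted p under 0.05), and 2 with equal medians and relative to the nearest features. It called 1 to 2 with 1 sample left out. Signs turned in 4 list genes, none of them called in the 12 samples after quantile normalization, and the cause was not tested. Of these, AT2G04700 passed with equal medians, AT5G10920 without WT sample 3 and CBL relative to the nearest features. AT3G53580 was at 0.055 with array weights, 0.49 with the lower floor (1st percentile), 0.47 without numbers 3 and 4, and -0.37 to 0.23 with 1 sample left out. CBL was at -0.30 as deposited, averaged or not, -0.27 with equal sums, -0.075 with the higher floor (20th percentile), -0.12 with array weights, -0.33 without numbers 3 and 4, and -0.061 to 0.58 with 1 sample left out. AT5G10920 was at 0.085 with equal medians, and AT2G04700 at -0.16 without numbers 3 and 4. The comparison with nearest features and averaging of deposited values were chosen after seeing the data.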

Other observations

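Within pairs of consecutive numbers, AT3G58610 differed more than most features in pam46. Among 2632 genes or features with no sample at the floor, its gap between pam46 samples 1 and 2 was 0.93 on the log2 scale, and 3.91% of features had a larger one. Between pam46 samples 5 and 6 the gap was 0.88, with 5.47% of features larger. Between pam46 samples 3 and 4 it was 0.07, smaller than in 81.3% of features. For AT3G23940 the gaps in pam46 were 0.24, 0.40 and 0.39 over the pairs 1 and 2, 3 and 4, and 5 and 6. The cause of these gaps was not tested.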
